A study of Mus musculus with 15 samples.

Results

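Co-treated macrophages were compared with untreated ones in 6 of the 15 RNA-seq libraries of the series, 3 labelled IL-13/IL-6 and 3 labelled control, taken by their labels. The cells were bone marrow-derived macrophages (BMDMs), mouse marrow cells grown for 7 days in M-CSF (20 ng/ml), the growth factor that both drives macrophages out of marrow progenitors and keeps them dividing. IL-13/IL-6 cells received IL-13 and IL-6 together, each at 40 ng/ml, and were taken after 24 h, while control cells received neither cytokine. The libraries labelled IL-13 (40 ng/ml alone), IL-4 (10 ng/ml alone) and IL-4/IL-6 (10 and 40 ng/ml), 3 each and also taken at 24 h, served only to show where the co-treated state differed. The labels give no genotype. The study's methods describe marrow from mice of 8 to 12 weeks of age. No group received IL-6 without IL-13 or IL-4, and thus the change from control joins the effects of both cytokines. The labels do not say whether replicates came from separate mice or cultures, and the p-values measure the spread between these libraries only.

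IL-13 acts on macrophages through a receptor built from IL-4Rα and IL-13Rα1, which activates the transcription factor STAT6 and turns on the M2 genes, among them the mannose receptor and several chemokines. IL-6 acts through IL-6Rα and the shared signaling chain gp130 and activates STAT3, which induces its own inhibitor SOCS3. Macrophages that have seen both signals are known from helminth infection, wound repair and tumors.

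All 15 libraries had similar depth, with 17001352 to 18918686 counted reads per library (17001352 to 18278484 in control and 17806244 to 18676279 in IL-13/IL-6), and 13938 genes passed the filter on low counts. Replicates were close. The biological coefficient of variation, the typical relative spread of a gene between replicates, was 4.48% in control and 7.39% in IL-13/IL-6, but 10.9% in IL-13 and 14.8% in IL-4/IL-6, where replicate 1 and replicate 2, respectively, stood apart from their own group. Counts of genes that use those groups were therefore also made without these libraries. Most markers of other marrow cells were higher in control, and their values stand with the genes that fell.

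**Figure D1:**
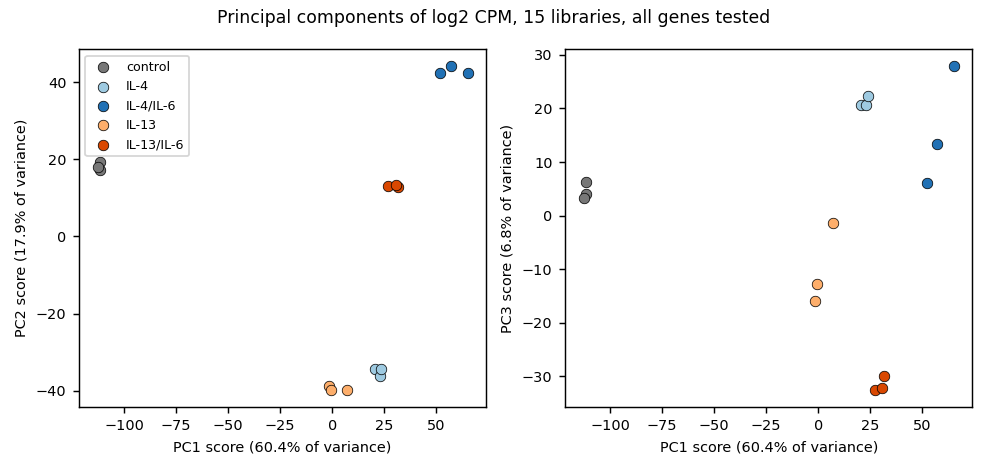
Scores of the 15 libraries on the first 3 principal components of log2 CPM over all genes tested; each point is a library, colored by group. IL-13/IL-6 libraries (PC1 27.0 to 31.6) lie far from control (PC1 -112.7 to -111.4) and, on PC2 (12.9 to 13.4), between the IL-13 libraries (-39.9 to -38.7) and the IL-4/IL-6 libraries (42.5 to 44.3). On PC2, control (17.3 to 19.4) is the group nearest to IL-13/IL-6.

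The first component held 60.4% of the variance and separated control from every treated library. Co-treated libraries lay beyond IL-13 alone on this component and had the lowest PC3 scores of all groups (-32.6 to -29.8), with no overlap with any other group on PC2.

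In IL-13/IL-6, 4440 genes were higher and 4479 lower than in control at an adjusted p below 0.05 (edgeR quasi-likelihood test, Benjamini-Hochberg over all genes), that is 31.9% and 32.1% of all genes tested. These shares are the background for every list that follows, about 1 gene in 3 in each direction. The large changes were skewed downwards. Only 332 genes (2.38%) had a log2 fold change above 2, against 1022 (7.33%) below -2. When the test itself was set against a log2 fold of 2, 174 and 634 genes remained, and with a minimum count of 50 the numbers were 215 and 607. The median over all genes was -0.0071 on the log2 scale. For genes given with values over control, the 3 control and 3 IL-13/IL-6 libraries did not overlap, except for *Adora3*, *Ap1m1*, *Ap2a1*, *Bcl3*, *Ccl5*, *Pim1*, *Pdgfb*, *Stab1*, *Stat6* and *Tnf*. For the largest changes this was a condition of the choice. The share of all genes without overlap is not given, so non-overlap is a description only.

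**Figure D2:**
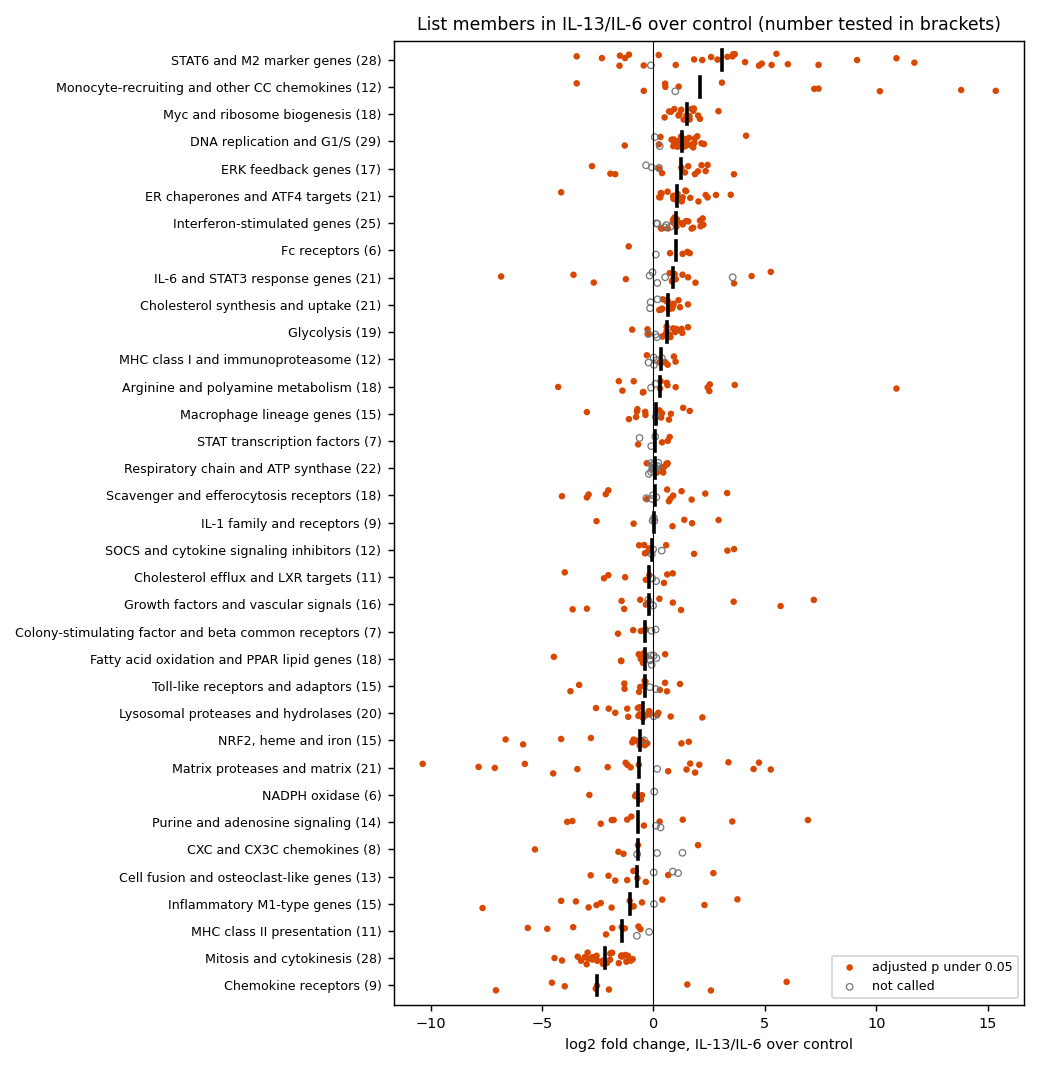
Log2 fold change of IL-13/IL-6 over control for the tested members of 35 gene lists, 1 point per gene, filled where the adjusted p is under 0.05, with black bars at the list medians. M2 marker genes and CC chemokines lie highest by median (3.10 and 2.102), while chemokine receptors and mitosis genes lie lowest (-2.53 and -2.17).

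Most M2 markers rose in co-treated cells. *Mrc1*, the mannose receptor CD206 (chr2:14229392-14332057, GRCm38), had 191, 203 and 195 normalized CPM (the share of counted reads, TMM-scaled) in the control libraries and 5484, 6194 and 5468 in the IL-13/IL-6 libraries. This is a log2 fold change of 4.86 ± 0.12 (SE; adjusted p = 2.4e-15). In IL-13 alone it was 496 ± 88.9 (SD, n = 3), 11.5-fold below the co-treated level (adjusted p = 2.9e-13). No IL-13 library reached any IL-13/IL-6 library.

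*Retnla*, which encodes the secreted M2 protein RELMα, went the other way when IL-6 was added. It had no count in any control library, 56.2, 49.8 and 47.5 CPM in IL-13 and 22.3, 24.3 and 22.8 in IL-13/IL-6, so it was at least 141-fold higher than control (taking 3 counts per control library as the limit) but 2.21-fold lower than with IL-13 alone (adjusted p = 5.9e-05). *Socs3*, the inhibitor induced by STAT3, was lower with IL-13 alone than with IL-13/IL-6. Its level was 6.57, 9.48 and 10.2 CPM in control, 1.66, 1.13 and 1.03 in IL-13 and 105, 106 and 109.5 in IL-13/IL-6 (log2 fold change over control 3.62 ± 0.14; over IL-13 6.39 ± 0.18). *Chil3*, the chitinase-like protein Ym1, rose over control, from 178, 186 and 167 to 346, 363 and 353 CPM (log2 fold change 1.00 ± 0.07), and in IL-13 alone its change from control did not pass the test (190.1 ± 9.59, adjusted p = 0.21).

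The promoters of *Retnla*, *Socs3* and *Chil3* are printed because each holds 1 match to the palindromes known as the target shapes of STAT factors, TTCNNNGAA for most STATs and, for STAT6, a longer form with 4 in place of 3 free bases between TTC and GAA. Each line holds the 250 bases before and 50 bases after the start in the RefSeq table (build GRCm38.p6), 5′ to 3′ on the gene's strand, with the matching motif in capitals. The windows are chr16:48842359-48842658 (plus strand) for *Retnla*, chr11:117969317-117969616 (minus strand) for *Socs3* and chr3:106167515-106167814 (minus strand) for *Chil3*.
Retnla: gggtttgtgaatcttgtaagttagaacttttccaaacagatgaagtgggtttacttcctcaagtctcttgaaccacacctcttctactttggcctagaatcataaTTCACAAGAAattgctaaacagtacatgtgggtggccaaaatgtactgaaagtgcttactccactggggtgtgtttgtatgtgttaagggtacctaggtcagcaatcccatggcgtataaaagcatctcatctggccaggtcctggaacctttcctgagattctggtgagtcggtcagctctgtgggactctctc
Socs3: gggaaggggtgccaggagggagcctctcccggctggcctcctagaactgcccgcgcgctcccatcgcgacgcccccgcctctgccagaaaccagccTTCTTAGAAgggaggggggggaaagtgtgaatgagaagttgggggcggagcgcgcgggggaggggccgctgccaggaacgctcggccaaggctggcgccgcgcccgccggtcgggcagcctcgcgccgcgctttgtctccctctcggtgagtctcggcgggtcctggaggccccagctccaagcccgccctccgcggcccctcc
Chil3: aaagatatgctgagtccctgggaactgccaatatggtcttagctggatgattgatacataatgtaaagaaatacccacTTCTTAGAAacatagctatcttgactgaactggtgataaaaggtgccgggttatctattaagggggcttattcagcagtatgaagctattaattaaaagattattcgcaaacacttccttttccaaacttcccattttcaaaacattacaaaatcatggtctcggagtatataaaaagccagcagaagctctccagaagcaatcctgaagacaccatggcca
The motif begins 145 bases before the start in *Retnla* (the longer form), 154 bases before it in *Socs3* and 172 in *Chil3* (both TTCNNNGAA). Both motifs read the same on either strand, no match overlaps another in these windows, and a match describes the letters only. Matches were about as frequent in the promoters of genes with large changes as in others. Of the 9983 tested genes matched to a promoter by symbol, 8.19% held TTCNNNGAA and 6.75% the longer form, against 6.33% and 7.24% of 221 genes called above a log2 fold of 2, and 9.42% and 7.74% of 711 genes called below -2. Over all 32851 promoters in the table the shares were 8.3% and 6.95%.

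Of the 30 STAT6 and M2 marker genes, 28 passed the filter, 20 rose and 7 fell (median log2 fold change 3.10). Fibronectin (*Fn1*), an adhesive matrix protein, rose from 44.6, 51.4 and 55.5 to 1234, 1509.8 and 1294 CPM, and the galactose-type lectin *Mgl2* from 1.77, 1.77 and 1.23 to 97.9, 125 and 91.3 (log2 fold changes 4.74 ± 0.20 and 6.03 ± 0.18). E-cadherin (*Cdh1*), which joins macrophages during fusion, rose to 52.6 ± 0.862 CPM from 1.32 ± 0.123, the cationic amino acid transporter *Slc7a2* to 268 ± 33.5 from 21.4 ± 2.41, and the VEGF receptor *Flt1* to 32.8 ± 6.27 from 2.77 ± 0.941. Cholesterol 25-hydroxylase (*Ch25h*) was at least 86.2-fold above a control level of at most 1 count. The members that fell were *Clec7a* (the β-glucan receptor dectin-1), *Itgax* (CD11c), *Ccl22*, *Irf4*, *Pparg*, *Tgm2* and *F13a1*, with log2 fold changes of -1.52, -2.31, -3.44, -1.10, -0.44, -1.28 and -1.50. *Ccl17* and *Alox15*, also in the list, did not pass the filter. Transglutaminase 2 and IRF4, both widely used as M2 markers, thus stood below untreated cells.

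**Figure D3:**
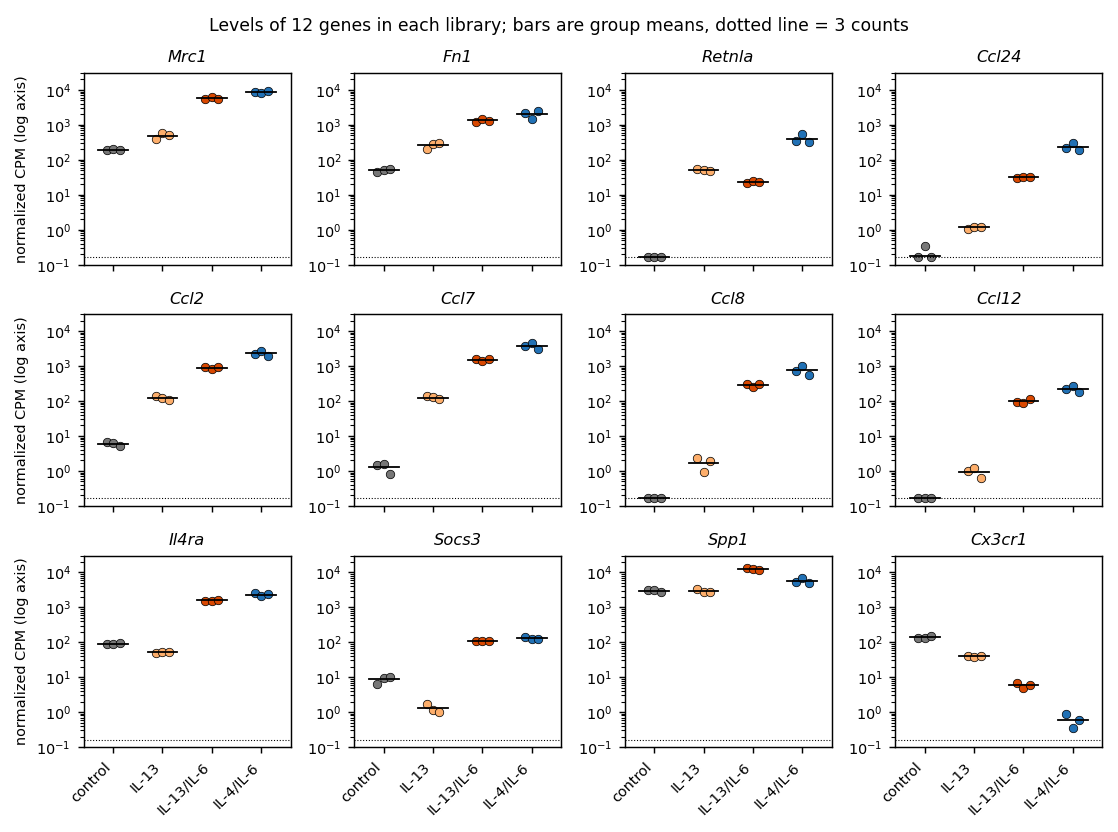
Normalized CPM of 12 genes in each library of control, IL-13, IL-13/IL-6 and IL-4/IL-6 on a log axis; points are libraries, bars are group means, and values under the dotted line (3 counts in a control library) are drawn on it. Control and IL-13/IL-6 libraries do not overlap for any of the 12 genes, and for Retnla the IL-13/IL-6 libraries lie below the IL-13 libraries.

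The receptor for IL-4 and IL-13 was itself among the genes that rose most. *Il4ra*, the chain shared by both receptors, had 87.4, 91.3 and 92.2 CPM in control, 49.6, 51.6 and 51.7 in IL-13 and 1528, 1548 and 1613 in IL-13/IL-6. IL-13 alone thus lowered it (log2 fold change -0.82 ± 0.07, adjusted p = 4.1e-08), whereas co-treated cells held 17.3 times the control level (log2 fold change 4.11 ± 0.08). On the IL-6 side, the ligand-binding chain *Il6ra* fell to 57.4 ± 0.8203 from 135.552 ± 3.57 CPM (log2 fold change -1.24 ± 0.08), while gp130 (*Il6st*) rose to 244 ± 23.6 from 137 ± 6.34 (0.83 ± 0.14). Relative to IL-13 alone, *Il6st* was higher (adjusted p = 0.0039), and for *Il6ra* the difference did not pass the test (adjusted p = 0.15).

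Changes in the STAT genes themselves were small. *Stat3* rose from 159, 156 and 156 to 249.5, 268 and 262 CPM, having been 84.1 ± 4.42 with IL-13 alone. *Stat6* was 258 ± 11.2 CPM in control and 273 ± 9.12 in IL-13/IL-6 (adjusted p = 0.32). Of 7 STAT genes, 3 were higher and 1 lower than control. Of 12 SOCS and related inhibitor genes, 4 rose and 5 fell, or 3 without IL-13/IL-6 replicate 3. After *Socs3*, the largest rise was that of *Socs1* (1.02 ± 0.108 to 10.2 ± 1.97 CPM), which held 10.3 ± 1.598 with IL-13 alone (adjusted p of the difference = 0.97).

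Of 22 genes listed as IL-6 and STAT3 responses, 21 were tested, 12 rose and 4 fell. The metalloproteinase inhibitor *Timp1* rose from 1.35, 0.831 and 1.35 to 50.8, 41.8 and 44.3 CPM, and the anti-inflammatory cytokine *Il10* from 0.0521, 0.6096 and 1.07 to 14.3, 11.4 and 10.7 (log2 fold changes 5.26 ± 0.23 and 4.41 ± 0.36). *Saa3*, an acute-phase apolipoprotein, and the IL-21 receptor *Il21r* rose by 1.89 and 1.30. Those that fell were *Lcn2*, *Hp*, *Serpina3g* and *Il6ra*. Lipocalin-2 and haptoglobin are also made by granulocyte precursors, whose markers fell as well. The part of these cells in the fall of *Lcn2* and *Hp* was not tested. Both *Bcl3*, a nuclear partner of NF-κB, and the kinase *Pim1* were lower with IL-13 alone but not called in co-treated cells. *Bcl3* had 19.3 ± 0.241 CPM in control, 6.38 ± 1.02 in IL-13 and 21.8 ± 3.16 in IL-13/IL-6 (adjusted p over control = 0.28), and *Pim1* 37.3 ± 3.303, 17.8 ± 1.099 and 36.3 ± 1.73 (adjusted p = 0.67).

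CC chemokines that attract monocytes and eosinophils were among the genes that rose most. They signal to receptors such as CCR1, CCR2 and CCR3 on the cells that they recruit. *Ccl2*, *Ccl7*, *Ccl12* and *Ccl8* lie in 1 cluster on chromosome 11 (chr11:82035571-82037453, chr11:82045712-82047525, chr11:82101845-82103400 and chr11:82115185-82116799, all on the plus strand) and are close in sequence, so that reads may be split between them. *Ccl7* (MCP-3) went from 1.51, 1.55 and 0.841 CPM in control to 1555, 1367 and 1597 in IL-13/IL-6 (log2 fold change 10.16 ± 0.21). *Ccl2* (MCP-1) went from 6.62, 6.21 and 5.22 to 916, 824 and 953 (7.22 ± 0.15). *Ccl8* and *Ccl12* had no count in any control library and reached 302, 254 and 317 and 93.2, 89.1 and 115 CPM, at least 1778-fold and 606-fold higher. The 3 co-treated libraries lay close together and far above control for each of them. IL-13 alone left these chemokines far lower, at 124 ± 12.5 CPM for *Ccl7*, 122 ± 14.8 for *Ccl2*, 1.74 ± 0.714 for *Ccl8* and 0.922 ± 0.285 for *Ccl12*. Eotaxin-2 (*Ccl24*) followed the same order, with 0.104, 0.332 and 0.112, 1.07, 1.18 and 1.24 and 30.3, 33.1 and 32.8 CPM in control, IL-13 and IL-13/IL-6.

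Per length and library size, by the deposited FPKM, *Ccl7* was the most abundant of these chemokines in co-treated cells (1836 ± 133 FPKM), followed by *Ccl2* (770.0 ± 50.5), *Ccl8* (556 ± 58.2), *Ccl6* (295 ± 6.34) and *Ccl9* (269.7 ± 10.1). Of 14 listed CC chemokines 12 were tested, 9 rose, 2 fell (*Ccl22* and *Ccl25*) and *Ccl5* was not called (adjusted p = 0.12). The call for *Ccl25* was lost without any 1 of the control libraries, without IL-13/IL-6 replicate 3 or with no filter on low counts (adjusted p up to 0.265), and *Ccl5* was called higher without IL-13/IL-6 replicate 2, in a fit to the 6 libraries alone and with no filter (adjusted p = 0.0162, 0.0422 and 9.9e-05). *Ccl4* rose from 14.04 ± 1.13 to 118 ± 10.6 CPM and *Ccl3* by 0.52 on the log2 scale. CXC chemokines did not share this rise. Of 12 listed, 8 were tested, platelet factor 4 (*Pf4*) rose (97.4 ± 8.26 to 390.1 ± 40.7 CPM) and 4 fell, among them *Cxcl16* and *Ppbp* (-1.34 and -5.32). Without IL-13/IL-6 replicate 2, 2 CXC chemokines were called higher.

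Chemokine receptors changed in both directions. Of 9 tested, 3 rose, among them *Ccr1* and *Ccr3*. *Ccr3*, the eotaxin receptor, had 1.198, 1.27 and 0.898 CPM in control and 78.3, 65.1 and 70.9 in IL-13/IL-6, and *Ccr1* went from 48.6, 50.1 and 44.1 to 286, 303 and 265. All co-treated libraries lay above all control libraries for both. The other 6 receptors fell. The fractalkine receptor *Cx3cr1* had 135.997, 129 and 146 CPM in control, 41.02, 36.7 and 39.5 in IL-13 and 6.83, 4.88 and 5.79 in IL-13/IL-6 (log2 fold change -4.56 ± 0.14 over control and -2.75 ± 0.14 against IL-13 alone). *Ccr2*, the receptor of CCL2 and CCL7, fell from 81.7, 80.9 and 83.9 to 14.8, 14.4 and 11.8, *Cxcr4* from 194 ± 5.46 to 33.5 ± 1.09, and *Ccrl2* from 38.3 ± 4.15 to 2.42 ± 0.174. *Ccr7* and *Cxcr3* were low from the start (8.42 and 5.68 CPM on average in control).

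Genes of the extracellular matrix and its turnover were split as well. Osteopontin (*Spp1*), a secreted adhesive protein, was already abundant in control (3068, 3065 and 2796 CPM) and was the gene that gained the most reads in co-treated cells (13148, 12273 and 11751; log2 fold change 2.06 ± 0.11), with no such rise in IL-13 alone (2892 ± 319.7, adjusted p = 0.75). *Tgfbi*, a matrix protein induced by TGF-β, rose from 232, 232 and 262 to 2549.9, 2357 and 2576 CPM. The collagenase *Mmp13* rose to 55.9 ± 4.14 from 2.47 ± 0.376 (4.50 ± 0.14), the sheddase *Adam8* to 2746 ± 69.7 from 752 ± 22.3, and urokinase (*Plau*) to 306 ± 2.91 from 97.7 ± 1.21, below its IL-13 level of 849 ± 44.5 (adjusted p = 8.1e-11). In the other direction, thrombospondin-1 (*Thbs1*) fell from 351, 322 and 348 to 1.45, 0.814 and 2.17 CPM, the membrane protease *Mmp14* from 106 ± 9.45 to 9.94 ± 2.92, *Timp3* from 19.1 ± 2.398 to 0.128 ± 0.124 and the macrophage elastase *Mmp12* from 663 ± 66.9 to 294 ± 21.9 after 973 ± 36.1 with IL-13. Of 21 genes in the list, 9 rose and 11 fell.

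Of 18 growth factor genes, 16 were tested, 6 rose and 7 fell. The EGF-family ligand *Hbegf* rose from 0.261, 0.831 and 0.393 to 24.8, 29.5 and 23.6 CPM, and *Pdgfc* from 5.33 ± 0.3903 to 9.74 ± 0.0692 after a fall to 0.541 ± 0.274 with IL-13 alone. *Vegfa* fell from 81.5 ± 8.27 to 30.2 ± 6.49 and hepatocyte growth factor (*Hgf*) from 35.3 ± 2.84 to 2.85 ± 0.373. *Pdgfb*, which IL-13 raised to 54.3 ± 3.24 CPM, was 14.97 ± 1.85 in co-treated cells and 17.6 ± 1.895 in control (adjusted p = 0.07). It was called lower without control replicate 2, with upper-quartile scaling, with library totals and with a minimum count of 50 (adjusted p = 0.0254, 0.0336, 0.01499 and 0.0312).

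The 10 genes with the largest gain, *Spp1*, *Ctsl* and *Mrc1* among them, held 1.18% of the normalized reads in control and 5.27% in IL-13/IL-6. The 10 with the largest loss (*Psap*, *Gpnmb*, *Lyz2*, *Mpeg1*, *Ctsd*, *Fth1*, *Ctsb*, *Apoe*, *Ctss* and *Lipa*) held 10.9% and 6.23%. They were chosen for these values, which are a description. Prosaposin (*Psap*), the precursor of the activators of lysosomal lipid hydrolysis, fell from 18066, 19272 and 18461 to 4550.1, 4606 and 4790.4 CPM, and the pore-forming *Mpeg1* (perforin-2) from 5266, 5559 and 5489 to 742, 800.3 and 809. By FPKM, the 10 highest genes of co-treated cells were *Fth1*, *Spp1*, *Lyz2*, *mt-Co1*, *Apoe*, *Gm23935*, *Eef1a1*, *Ctsb*, *Tmsb4x* and *Lgals3*. Osteopontin was second at 7342 ± 408 FPKM, from rank 16 in control. *Gm23935* varied between replicates by more than its mean (3701 ± 4414 FPKM).

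Many lysosomal genes fell. Of 20 proteases and hydrolases, 15 fell and 4 rose, with a median of -0.47, and *Ctsk* was not called. Fewer were called higher when scaled by library totals. Cathepsin L (*Ctsl*) was the exception in size. It rose from 1791, 1787 and 1677 to 8138, 7655 and 8251 CPM (log2 fold change 2.19 ± 0.08) and legumain (*Lgmn*) from 1597 ± 55.6 to 2728 ± 76.6, while cathepsin D (*Ctsd*), cathepsin H (*Ctsh*) and acid lipase (*Lipa*) fell, with log2 fold changes of -1.13, -2.58 and -2.01. Cathepsin L and legumain were also above IL-13 alone (adjusted p = 2.4e-09 and 5.9e-09).

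Cell cycle genes split by phase. Genes for DNA replication and the G1/S step rose in co-treated cells, whereas genes for mitosis fell. Of 29 replication and G1/S genes, 26 rose, 1 fell (*E2f2*, -1.29) and the other 2, *Tyms* and *Fen1*, were not called. *Mcm2*, a subunit of the replicative helicase, had 31.6, 30.1 and 32.6 CPM in control and 138, 140.5 and 141 in IL-13/IL-6, and cyclin D1 (*Ccnd1*), which drives entry into the cycle, had 18.8, 16.8 and 16.6 and 292, 318 and 320.4 (log2 fold changes 2.16 ± 0.07 and 4.16 ± 0.14). All 28 mitosis genes fell, with log2 fold changes from -0.93 to -4.44 (median -2.17). The proliferation marker *Mki67* dropped from 472, 380.4 and 434 to 63.5, 69.8 and 60.5 CPM, cyclin B2 (*Ccnb2*) from 74.4, 66.6 and 68.05 to 3.41, 3.200 and 3.004 and the kinase *Plk1* from 39.2 ± 4.99 to 4.13 ± 0.849. No library of either group overlapped the other for these genes.

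**Figure D4:**
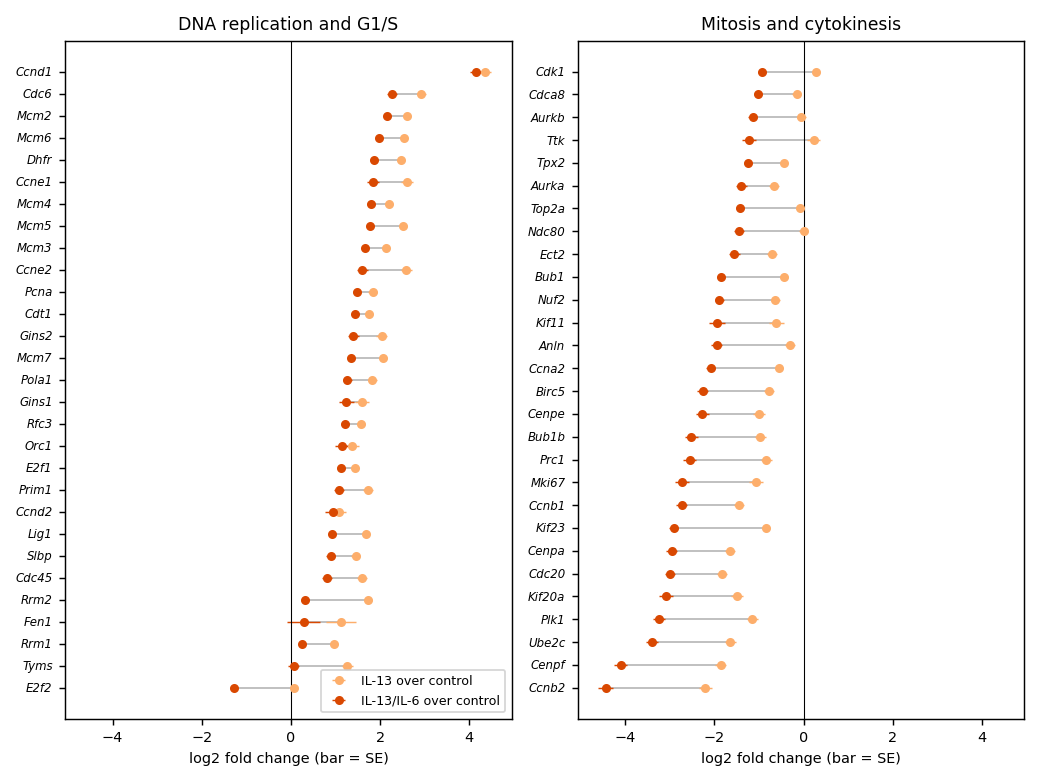
Log2 fold change over control of 29 replication and G1/S genes and 28 mitosis genes in IL-13/IL-6 and in IL-13 alone (which share the control libraries), with bars for the standard error. All 28 mitosis genes lie left of 0 in IL-13/IL-6, whereas 26 of 29 replication and G1/S genes were called higher.

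Against IL-13 alone, both sets were lower. Of the replication and G1/S genes, 24 of 29 were lower in IL-13/IL-6 than in IL-13 (median -0.60) and none was higher, and all 28 mitosis genes were lower (median -1.43), against 13.5% of all genes called lower and 12.1% higher in this comparison. Without IL-13 replicate 1 the numbers were 25 and 28. *Mki67*, for example, was 166, 218 and 230.5 CPM in IL-13. *Ccnd1* was 356 ± 40.3 CPM in IL-13, and its difference did not pass the test (adjusted p = 0.27). The cell cycle inhibitor p21 (*Cdkn1a*), which is in no list and was looked up after the values were seen, went from 33.6, 28.2 and 29.1 CPM in control to 244, 231 and 271 in IL-13/IL-6 (177 ± 7.73 in IL-13).

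Genes of cell growth rose together with the G1/S genes. All 18 Myc and ribosome biogenesis genes rose (median 1.51). *Myc* had 11.8, 11.6 and 11.9 CPM in control and 87.2, 93.5 and 86.2 in IL-13/IL-6, and the nucleolar proteins *Nop58* and *Ncl* rose by 2.01 and 1.13. *Myc* was 89.6 ± 4.08 in IL-13 alone (adjusted p of the difference = 0.94). Of 21 ER chaperone and ATF4 target genes, 20 rose (median 1.08), among them the chaperone BiP (*Hspa5*, 1091 ± 44.8 to 2206 ± 89.1 CPM), the disulfide isomerase *Pdia4* (139 ± 9.17 to 436 ± 6.81), asparagine synthetase (*Asns*, 2.35) and the mitochondrial folate enzyme *Mthfd2* (2.02). The cystine transporter *Slc7a11*, an ATF4 and NRF2 target, was the only member that fell (24.2, 23.8 and 20.3 to 0.926, 1.63 and 1.28 CPM).

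Among feedback genes of the ERK pathway, which growth factor receptors induce, 11 of 17 tested rose and 3 fell. The transcription factor *Etv5* rose from 16.6, 16.1 and 17.6 to 188, 227 and 202 CPM, and *Dusp4*, *Dusp6* and *Spred1* by 2.43, 2.34 and 2.16 on the log2 scale. Those that fell included *Egr3* (-2.76) and *Dusp2* (-1.93). IL-13 alone gave 12 higher and 2 lower than control (12 and 3 without IL-13 replicate 1). Directly compared, 3 were higher and 7 lower in IL-13/IL-6 than in IL-13 (median -0.11), also without IL-13 replicate 1.

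Most glycolysis genes rose and most genes of fat oxidation fell. Of 19 glycolysis genes tested, 13 rose and 3 fell (median 0.59), and without control replicate 1 or 3, or IL-13/IL-6 replicate 1 or 3, the number that fell was 1. *Aldoa*, whose symbol has a duplicate entry, is outside the 19 but was included where replicates were left out. The glucose transporter *Slc2a1* rose from 36.8 ± 3.700 to 108 ± 15.1 CPM and lactate dehydrogenase A (*Ldha*) from 638 ± 22.4 to 1565 ± 43.6. Of 18 fatty acid oxidation and PPAR lipid genes, 11 fell, among them the carnitine transferase *Cpt1a* (243 ± 1.83 to 89.3 ± 4.47) and *Fabp4* (259.8 ± 26.8 to 94.8 ± 6.66), and lipoprotein lipase (*Lpl*) was the only member that rose (0.53), or 1 of 2 without IL-13/IL-6 replicate 3. Respiratory chain genes changed little, with 8 of 22 higher, 1 lower and a median of 0.08. Without control replicate 3, the number higher was 5.

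Of 18 arginine and polyamine genes tested, 10 rose and 6 fell. Ornithine decarboxylase (*Odc1*), which makes putrescine from ornithine, rose from 33.97, 31.6 and 33.7 to 189, 169 and 179 CPM, spermidine synthase (*Srm*) from 11.8, 13.2 and 13.5 to 77.97, 67.9 and 73.8, and the arginine transporter *Slc7a1* from 14.4 ± 1.01 to 83.4 ± 6.41. Genes that degrade polyamines fell, with log2 fold changes of -1.55 for *Sat1*, -0.45 for *Smox* and -0.88 for *Paox*. Argininosuccinate synthase (*Ass1*) fell as well (-1.39).

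Cholesterol genes separated co-treated cells from IL-13 alone. Of 21 tested synthesis and uptake genes, which are targets of SREBP2, 18 rose over control and none fell, or 2 fell when scaled by library totals (median 0.64), whereas in IL-13 alone 2 were higher and 13 lower than control (2 and 11 without IL-13 replicate 1), against 29% and 31.1% of all genes. Directly compared, 20 of 21 were higher in IL-13/IL-6 than in IL-13 (median 1.03), and without IL-13 replicate 1 the number was 21. Squalene epoxidase (*Sqle*) had 91.2, 87.3 and 85.9 CPM in control, 117, 135 and 125 in IL-13 and 254, 265 and 256 in IL-13/IL-6. The rise over control was small for some members, such as HMG-CoA synthase (*Hmgcs1*, 0.26 ± 0.10), whose call was lost without control replicate 1 or 3 or IL-13/IL-6 replicate 2 (adjusted p = 0.0514, 0.0731 and 0.0505). It was also lost with upper-quartile scaling and with library totals (0.0534 and 0.0855, the latter at a log2 fold change of 0.17). Of 11 tested genes of cholesterol efflux, targets of the receptor LXR, 6 fell and 3 rose. The exporters *Abca1* and *Abcg1* fell from 187, 199 and 213 and 171, 174 and 165 to 10.6, 15.03 and 12.2 and 29.7, 39.9 and 39.8 CPM, and their activator LXRα (*Nr1h3*) from 54.5 ± 4.84 to 13.4 ± 2.103.

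Interferon-stimulated genes were modestly higher than in control. Of 25 such genes, 20 rose and none fell, with a median of 1.03. The transcription factor *Irf7* had 16.00, 16.9 and 17.7 CPM in control and 34.9, 33.1 and 81.1 in IL-13/IL-6, and *Bst2* (tetherin) 79.98, 83.4 and 79.8 and 278, 228 and 330.0. Replicate 3 of IL-13/IL-6 stood above the others for both, and without it 16 members were called higher. IL-13 alone gave 18 higher (20 without IL-13 replicate 1) and none lower, and 2 members were higher (*Zbp1* and *Stat2*) and 1 lower in IL-13/IL-6 than in IL-13. Without IL-13 replicate 1, 1 was higher and 2 were lower, and the call for *Stat2* was lost (adjusted p = 0.104). In contrast, genes of antigen presentation by MHC class II were lower. Of 11 genes, 9 fell and none rose (median -1.43). The class II transactivator *Ciita* fell from 12.7, 13.5 and 13.7 to 0.174, 0.488 and 0.111 CPM and *H2-Aa* from 53.3, 63.1 and 54.3 to 16.9, 15.4 and 15.2, below IL-13 alone for both (adjusted p = 8.5e-04 and 2.3e-04). Of 12 genes of MHC class I and the immunoproteasome, 6 rose, among them *Psmb8* and *Psmb10* (0.64 and 0.99), and 1 (*H2-D1*) fell, or 2 without IL-13/IL-6 replicate 3.

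Genes of the inflammatory M1 type fell more often than they rose (11 against 3 of 15 tested). The costimulatory molecule *Cd86* fell from 9.27, 11.2 and 9.26 to 1.68, 1.46 and 2.61 CPM and the itaconate-producing enzyme *Acod1* from 42.5 ± 4.78 to 11.6 ± 8.09. Those that rose were *Cd40* (8.03 ± 1.16 to 39.2 ± 2.32), cyclooxygenase-2 (*Ptgs2*, 0.368 ± 0.265 to 5.05 ± 0.613) and *Tnf* (16.98 ± 1.71 to 22.3 ± 3.75). The call for *Tnf* was lost without control replicate 1 or 3 or IL-13/IL-6 replicate 1 or 3 (adjusted p = 0.132, 0.0674, 0.0617 and 0.1302), and also with upper-quartile scaling, library totals or a minimum count of 50 (0.0637, 0.1102 and 0.0591). *Nos2* and *Il6* did not pass the filter on low counts. The NADPH oxidase, which makes superoxide in phagosomes, was lower in 5 of 6 subunits. Its catalytic chain gp91phox (*Cybb*) fell from 1147, 1289 and 1289 to 151, 172 and 184 CPM (log2 fold change -2.88 ± 0.11), with 383 ± 49.99 in IL-13 alone. Of 15 Toll-like receptor and adaptor genes tested, 9 fell, led by *Tlr9* (-3.72) and *Tlr2* (-3.34), and 4 rose, led by the adaptor *Myd88* (1.19). Of 9 tested genes of the IL-1 family and its receptors, 4 rose and 2 fell. The decoy ligand *Il1rn* went from 13.05 ± 1.11 to 23.6 ± 4.73 CPM, and the alarmin *Il1a* from 7.81 ± 0.849 to 1.33 ± 0.811.

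Of 18 scavenger and efferocytosis genes tested, 8 rose and 6 fell. The hemoglobin-haptoglobin receptor *Cd163* rose from 6.201, 8.48 and 8.303 to 71.5, 85.4 and 70.4 CPM and the scavenger receptor *Msr1* from 185, 188 and 176 to 935, 903 and 916. The complement genes *C1qa*, *C1qb* and *C1qc* and the bridging ligand *Gas6* rose (1.26, 0.61, 0.76 and 1.72), whereas the receptors for Gas6, *Mertk* and *Axl*, fell from 132, 139 and 156 and 282, 321 and 333 to 16.7, 18.8 and 18.3 and 17.5, 15.6 and 21.1 CPM. *Stab1* had fallen with IL-13 alone (611 ± 71.8 CPM) and was 1337 ± 64.4 in IL-13/IL-6 against 1356 ± 59.1 in control. Of 6 Fc receptor genes, 4 rose over control and 5 were higher than in IL-13 alone. The inhibitory receptor *Fcgr2b*, for which control held 126, 139.7 and 137 CPM, was 53.1, 65.5 and 61.98 in IL-13 and 386, 395 and 378 in IL-13/IL-6, and the neonatal Fc receptor *Fcgrt* followed the same order (60.98 ± 5.95, 14.7 ± 1.75 and 151 ± 3.99).

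Iron and purine genes mostly fell. Of 15 NRF2, heme and iron genes tested, 12 fell and 2 rose. The iron exporter ferroportin (*Slc40a1*) fell from 91.2, 109.6 and 89.9 to 1.04, 1.302 and 0.556 CPM, while the transferrin receptor (*Tfrc*) and heme oxygenase-1 (*Hmox1*) rose from 169, 173 and 163 and 673, 713 and 687 to 525, 491 and 501 and 1778, 1486 and 1685. Of 14 purine and adenosine genes, 8 fell, with the ectonucleotidase CD39 (*Entpd1*) dropping from 141 ± 6.82 to 11.3 ± 1.13 CPM, and 4 rose. Of the adenosine receptors tested, *Adora2b* rose from 1.45 ± 0.303 to 16.9 ± 0.2202 and *Adora2a* fell from 3.37 ± 0.8396 to 0.226 ± 0.202, while *Adora3* was 1.63 ± 0.604 in control and 1.76 ± 0.727 in IL-13/IL-6 (adjusted p = 0.81).

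Macrophage identity genes were well expressed in both groups. *Adgre1* (F4/80) had 803, 865 and 864 CPM in control and 1452, 1460.4 and 1449 in IL-13/IL-6, *Csf1r* (the M-CSF receptor) 2195 ± 97.01 and 1697 ± 66.2, and *Cd68* 1317 ± 23.3 and 1590.0 ± 32.4. Of 15 lineage genes 7 rose, among them *Fcgr1* (CD64) at 1.63, and 7 fell, with *Mertk* and *Aif1* lowest (-2.99 and -1.10). Among colony-stimulating factor and β common receptor genes none rose and 5 of 7 tested fell, including *Csf1* (-0.91). Genes of cell fusion and osteoclasts fell in 8 of 13 and rose in 2, the gelatinase *Mmp9* (0.66) and the tetraspanin *Cd81* (2.69).

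Many of the 15 largest falls, among genes with a mean of at least 20 CPM in the higher group and replicates that did not overlap, were in genes of other marrow cells. Of these 15, the alarmin *S100a9* had 143, 173 and 153 CPM in control and 0 in every IL-13/IL-6 library, lactoferrin (*Ltf*) 77.7, 90.9 and 76.7 and at most 1 count, and neutrophilic granule protein (*Ngp*) 124, 145 and 123 and at most 2 counts, so that they were at least 932-, 488- and 778-fold lower (limit of 3 counts per library). Myeloperoxidase (*Mpo*) was at least 153-fold lower. All are proteins of neutrophils or their precursors. The platelet integrin *Itga2b* fell from 122, 109.9 and 110.0 to 1.97, 1.79 and 1.28 CPM. Others in this set were *Elane*, *Ly6c2*, *Lcn2*, *Cd4*, *Alox12*, *Mmrn1*, *Nrgn* and *Rab27b*, with means of 21.9 to 32.7 CPM in control and 0.0945 to 0.279 in IL-13/IL-6, beside *Thbs1* and *Slc40a1*.

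Summed levels show the lists of other marrow cells as a whole. The summed level of 14 granulocyte genes was 689.7 to 792 CPM in control and 64.7 to 75.5 in IL-13/IL-6, where 5 of 7 defining markers were at 3 counts or fewer in every library and 1 (*S100a9*) was at 0, and all 13 members tested were called lower. Mast cell, basophil and eosinophil genes summed to 49.6 to 55.4 CPM and 1.39 to 1.898, stromal genes to 18.4 to 23.3 and 0.163 to 0.668, and B cell genes to 11.8 to 12.6 and 0.651 to 1.06. T and NK cell genes summed to 24.9 to 31.1 CPM and 0.174 to 0.278, nearly all of it *Cd4*, which macrophages can also express, and erythroid genes to 3.65 to 5.11 and 0.163 to 0.578. Dendritic cell genes went from 44.04 to 47.5 CPM in control down to 6.83 to 7.05.

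The sums of the megakaryocyte list overlapped (411 to 459 and 356 to 428 CPM), and *Pf4* rose while the other 6 members fell. The monocyte list rose in sum, from 229 to 244 up to 1269.8 to 1556 CPM, through *Fn1*, which is also an M2 gene here, while *Ly6c2* and *Plac8* fell. Of its 8 members, 2 were called higher and 5 lower (median log2 fold change -2.05). In IL-13 alone, granulocyte genes summed to 49.5 to 54.00 CPM, the megakaryocyte list to 80.1 to 96.6 and the monocyte list to 227 to 321. Fewer cells of a type and less RNA per cell cannot be told apart in bulk libraries, and the part of these cells in the other falls was not tested.

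Among the 15 largest rises under the same limits, genes outside the lists were *Msx3*, a homeobox factor with no count in control and 70.4, 84.1 and 70.5 CPM in IL-13/IL-6 (at least 459-fold), connexin 43 (*Gja1*), a gap junction channel, with 1.72, 1.61 and 1.23 and 122, 117 and 116, and the inhibitor of differentiation *Id1*, with 3.13, 3.05 and 3.198 and 99.9, 83.6 and 109.9. In IL-13 alone connexin 43 was not called against control (1.93, 1.91 and 0.927 CPM; adjusted p = 0.9), whereas *Id1* was already 62.9 ± 11.8 CPM in IL-13. In the direct comparison of IL-13/IL-6 with IL-13, 1684 genes were higher and 1879 lower. Without IL-13 replicate 1, these were 1605 and 1948. Among listed genes and the largest changes with a mean of at least 20 CPM in the higher group and replicates that did not overlap, *Ccl8*, *Ccl12*, *Socs3*, *Gja1*, *Il4ra*, *Ccl24*, *Ccl7* and *Timp1* were most above IL-13 (log2 7.37 to 3.55). *Cx3cr1*, *Kif23*, *Pdgfb*, *Axl*, *Itgax*, *Havcr2*, *Mmp12* and *Prc1* were most below it under the same limits (-2.75 to -1.72).

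**Figure D5:**
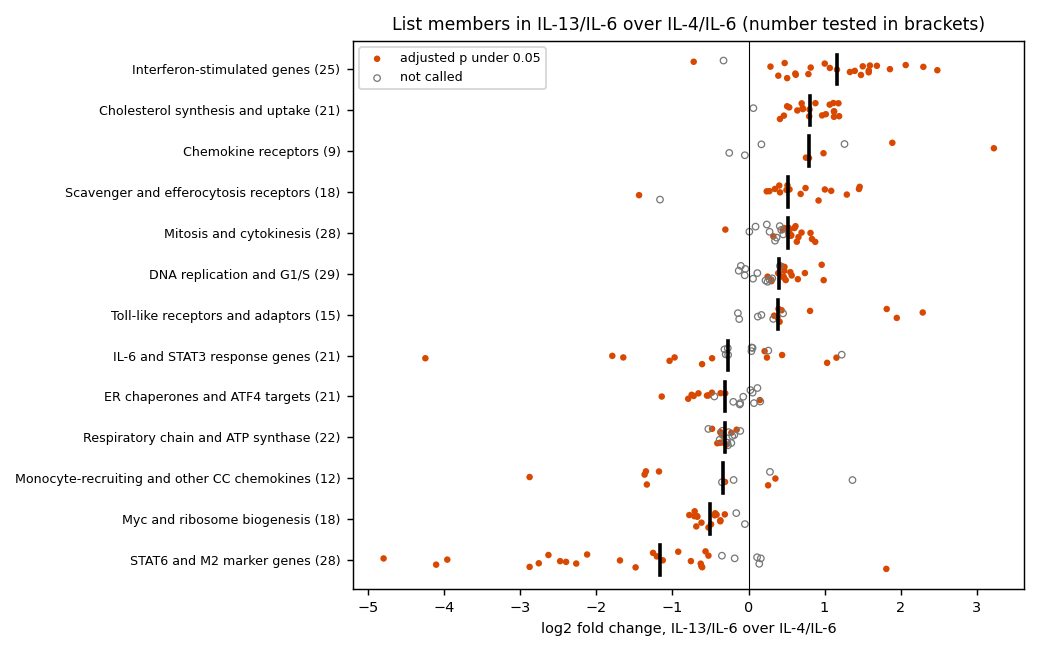
Log2 fold change of IL-13/IL-6 over IL-4/IL-6 for tested members of 13 lists, 1 point per gene, filled where the adjusted p is under 0.05, with black bars at list medians. Interferon-stimulated and cholesterol synthesis genes lie to the right (medians 1.16 and 0.80), and M2 markers to the left (median -1.17).

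Compared with cells that had IL-4 in place of IL-13 beside the same dose of IL-6, 2161 genes (15.5%) were higher and 2207 (15.8%) lower in IL-13/IL-6. IL-4 was given at 10 ng/ml and IL-13 at 40 ng/ml, and the type and the dose of cytokine cannot be told apart. Without IL-4/IL-6 replicate 2 the numbers were 2049 and 1821, and a fit to these 6 libraries alone called 1574 and 1326. M2 markers were lower with IL-13. Of 28 tested, 22 were lower and 1 (*F13a1*) higher, with the same numbers without IL-4/IL-6 replicate 2. *Retnla* was 341, 537 and 319.8 CPM in IL-4/IL-6, 17.2-fold above IL-13/IL-6. *Mrc1* differed less, at 8717 ± 792 CPM in IL-4/IL-6 (-0.61 ± 0.10). *Ccl2*, *Ccl7*, *Ccl8*, *Ccl12* and *Ccl24* were lower as well, with log2 fold changes from -1.18 to -2.88.

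Other groups were higher with IL-13/IL-6. Interferon-stimulated genes were higher in 23 of 25 and lower in 1 (*Usp18*), and without IL-4/IL-6 replicate 2 in 23 and 1. *Irf7* was 34.9, 33.1 and 81.1 CPM in IL-13/IL-6 and 16.7, 18.03 and 18.7 in IL-4/IL-6. Cholesterol synthesis and uptake genes were higher in 20 of 21 (21 without that replicate). *Spp1* was 5239, 6769.7 and 4791 CPM in IL-4/IL-6, 2.21-fold below its level with IL-13/IL-6 (adjusted p = 2.9e-07). The LPS co-receptor *Cd14*, the C-type lectins *Clec4e* and *Clec12a* and the semaphorin *Sema4d* were among the 8 genes most in excess with a mean of at least 20 CPM in the higher group and replicates that did not overlap. They had 228 ± 8.23, 36.8 ± 8.09, 233 ± 12.4 and 78.4 ± 5.05 CPM in IL-13/IL-6 and 46.5 ± 4.63, 6.12 ± 1.901, 45.1 ± 7.13 and 13.1 ± 1.397 in IL-4/IL-6. The others of the 8 were *Ifi209*, *Marcksl1*, *Arap3* and *Kcnj2*. Most in deficit, under the same limits, were *Scn3a*, *Tuba8*, *Chil4*, *Retnla*, *Il1r1*, *Baiap2l1*, *Ccl24* and *Ch25h*, with log2 fold changes from -2.63 to -5.14. *Il1r1*, the IL-1 receptor, had 4.16, 4.34 and 4.45 CPM in IL-13/IL-6 and 56.6, 49.5 and 60.5 in IL-4/IL-6.

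Myc and ribosome biogenesis genes were lower than in IL-4/IL-6 in 16 of 18 (18 without IL-4/IL-6 replicate 2), and respiratory chain genes in 10 of 22, a number that rose to 17 without IL-4/IL-6 replicate 3 and was 8 without replicate 2. Mitosis genes, although all below control, were higher than in IL-4/IL-6 in 18 of 28 and lower in 1 (*Cdca8*), or 17 and 0 without replicate 2.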

How the data were processed

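The deposited raw counts (whole reads per Ensembl gene, 1 column per library) and the deposited FPKM values, which the authors made from those counts per length and library total, were used. The submitters' processing notes list CASAVA, Bowtie2 2.2.3, HISAT2 2.1.0, TopHat2 and DESeq2 and build GRCm38, with no role or order, and strand use is not given in the sources used here. All columns were used. Genes with low counts were removed (edgeR filterByExpr, minimum count 10), counts were scaled by TMM, and edgeR 4.0.16 in R 4.3.3 fitted a quasi-likelihood model over the 5 groups of 3 libraries with Benjamini-Hochberg adjustment over 13938 genes. The standard error is the log2 fold change divided by the square root of F. FPKM served only for levels between genes. Depth limits the precision to a floor of 3 counts per library, about 0.168 CPM in IL-13/IL-6. This floor covers counting error only, whereas standard errors include the spread between replicates.

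The comparison, its members and the gene lists were chosen with earlier results of these data known. Named genes were list members, the 15 largest changes in each direction with non-overlapping replicates and at least 20 CPM in the higher group (Gm and Rik symbols left out), the 10 largest gains and losses in CPM, the 10 highest by FPKM, the 8 most different in each direction from IL-4/IL-6 and from IL-13, and genes that the study's text names. Genes outside this rule are said to be chosen after their values were seen. Alternatives were other scaling, filters, tools (DESeq2 1.42.0), the 6 libraries alone, a replicate block and leaving out each replicate. Positions are from GENCODE on GRCm38. Exons of *Il4ra*, *Thbs1*, *Fn1*, *Spp1*, *Mpo* and *Ch25h* overlap those of another gene, and reads there could belong to either. Reads of close copies (*Chil3* and *Chil4*, and the chemokines of the *Ccl2* cluster) may be shared. Some items are not reported here.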

Additional observations from a re-analysis of the deposited data

Results flagged for a closer look

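The change seen when IL-6 was added differed by over 2 on the log2 scale between IL-13 and IL-4 for 3 of the genes named here (edgeR interaction test, all genes adjusted). The doses of IL-13 and IL-4 differed. For *Cd163* the change was 1.67 with IL-13 and 3.76 with IL-4, a difference of -2.09 ± 0.20 (adjusted p = 3.2e-06). For *Baiap2l1*, which links membranes to actin, the difference was -2.37 ± 0.37 (adjusted p = 3.9e-04). For *Pdgfb*, which fell with IL-6 under both, it was 2.24 ± 0.17 (adjusted p = 4.1e-07), the fall being the smaller with IL-13.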

How the results depend on the processing

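Counts over control changed little with the tool (DESeq2: 4368 higher and 4528 lower). Scaling by library totals moved the median of all genes to -0.104 and gave 3780 higher and 5140 lower, so that 42.4% of called genes were higher in place of 49.8%. Genes called past a log2 fold of 2 numbered 215 above and 607 below with a minimum count of 50, and 174 and 634 with glmTreat. Leaving out each library gave 4099 to 4353 higher, 4058 to 4399 lower, 343 to 360 above and 1080 to 1182 below. It gave 1328 to 1605 higher and 1574 to 1948 lower against IL-13, 1803 to 2524 and 1505 to 2540 against IL-4/IL-6, 3703 to 4007 and 3694 to 4190 for IL-13 over control, and 238 to 253 and 184 to 189 over all lists together. With the 6 libraries alone, 1326 genes were lower than in IL-4/IL-6. The interaction had 616 genes higher and 449 lower, with ranges of 489 to 798 and 293 (without IL-4 replicate 2) to 607. The first component held 76.4% with the 500 most variable genes. Same-numbered control and IL-13/IL-6 libraries did not deviate together (correlations -0.012, -0.048 and 0.030), so the numbers were not taken as pairs. With a replicate block, 4367 genes were higher and 4395 lower than control. No gene named in the text turned its direction over control with a call under any alternative. Of list counts over control, 35 of 910 values moved by over 1.5 times, including cholesterol synthesis genes called lower (0 to 2 under other scaling or a minimum count of 50) and lysosomal genes called higher (4 to 2 with library totals). Causes were not tested.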

Other observations

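Genes of clathrin-coated vesicles, which carry receptors such as the mannose receptor into the cell, were noticed after their values were seen, and their values are a description with no test of the group. The adaptor subunit *Ap2m1* had 323, 332 and 318 CPM in control and 1464, 1380.0 and 1459 in IL-13/IL-6, *Ap1b1* 173, 177 and 177 and 772, 785 and 803, and *Ap2a2* 133, 137 and 133 and 355, 363 and 372. The endocytic adaptor *Dab2* rose by 4.15 on the log2 scale. Among other subunits, *Ap2a1*, *Ap1m1* and *Ap1g1* were not called against control (log2 fold changes -0.03, -0.01 and -0.16). A fit to the 6 libraries alone called *Ap1g1* lower (adjusted p = 0.01096). *Ap2b1* was not called in IL-13 over control or in IL-13/IL-6 over IL-13 (log2 fold changes -0.007 and 0.009). Values of *Ap2s1*, *Cltb*, *Cltc* and *Itsn1* are not given.

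Also chosen after their values were seen, the metal importers *Slc39a8* and *Slc39a14* stood at 12.8 ± 0.501 and 13.3 ± 0.194 CPM in control and at 102 ± 3.58 and 120.4 ± 7.08 in IL-13/IL-6, and the endothelin receptor *Ednrb* at 15.9 ± 1.03 and 258 ± 19.2. In the other direction, the integrin chain *Itgal* (CD11a) stood at 185 ± 14.1 and 14.5 ± 1.16, the sialic acid receptor *Cd33* at 114 ± 6.24 and 6.44 ± 1.23, and the selectin ligand *Selplg* at 169 ± 6.75 and 98.9 ± 4.45.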
